A study of Mus musculus with 23 samples.

Results

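Tsc22d3, Fkbp5, Txnip and Arrdc3, genes known to respond to glucocorticoids or to FoxO transcription factors, were followed across 6 groups of mouse microglia. They were chosen by gene symbol, with earlier results of these data known, among them their spread among replicates. Each had 1 probe set, so that 4 of the 22203 probe sets and 4 of the 19505 gene symbols on the array were the members. The array samples were microglia from cortex and hippocampus, sorted for CD45 and CD11b, and 23 samples were measured. The study set young microglia of amyloid and tau mouse lines, and old activated microglia of the same lines, against wild-type microglia.

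The wild-type (WT) strain was C57BL6, with 4 samples of young (3 months) and 4 of old (12 months) mice. Amyloid mice of the line APPswlnd (APP), with a mutated human amyloid precursor protein transgene, gave 3 samples at 3 months. They gave a further 4 samples at 12 months, labelled active and sorted as Clec7a positive, called gated APP here; Clec7a is a lectin receptor of activated myeloid cells. The P301S line PS19 (TAU), with a mutated human tau transgene, gave 4 samples at 3 months and 4 gated, Clec7a-positive samples. The age of these gated TAU samples is 9 months in the age and source labels but 12 months in their titles, and 9 months was used. Gated APP and gated TAU samples therefore differed from WT 12 months samples in strain, pathology and gate together (gated TAU also in age), and these cannot be told apart. The promoters that drive the transgenes, the sex of the mice, and whether each replicate was a separate animal are not given in the sources used here, so every p-value measures the spread between samples, which may be partly technical.

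The glucocorticoid receptor is a nuclear receptor that is held by heat shock protein chaperones until corticosterone, the main glucocorticoid of mice, binds it; it then enters the nucleus and switches genes on or off. Tsc22d3 (also known as GILZ) and Fkbp5 are among its best known induced targets: the first encodes an anti-inflammatory leucine zipper protein, and the second a co-chaperone that lowers the receptor's affinity for hormone in a short feedback loop. FoxO factors are active when insulin or growth factor signalling through PI3K and Akt is low, and they raise genes of stress resistance and metabolism. Txnip encodes an alpha-arrestin that binds thioredoxin and limits glucose uptake, and it is also raised by the glucose-sensing Mondo factors and by glucocorticoids. Arrdc3 encodes a related alpha-arrestin that steers beta-adrenergic receptors and other membrane proteins to degradation. Microglia are known to express both receptors that bind corticosterone, and hormone is known to dampen their inflammatory genes.

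The promoters of the 4 genes are shown because 3 of the 4 moved together in the gated samples, and because a receptor or factor motif can be compared between them by eye. The sequences come from RefSeq (GRCm38.p6, mouse) and are the 250 bases before a start site, written 5′ to 3′ along the gene, with motif matches in capitals. All 4 members were found in that table, Tsc22d3 and Arrdc3 with 3 start sites each. The start shown for Tsc22d3 is the one of its 3 that held a match, and for Arrdc3 the first by position of the pair that held one.
Txnip, chr3:96557707-96557956, plus strand: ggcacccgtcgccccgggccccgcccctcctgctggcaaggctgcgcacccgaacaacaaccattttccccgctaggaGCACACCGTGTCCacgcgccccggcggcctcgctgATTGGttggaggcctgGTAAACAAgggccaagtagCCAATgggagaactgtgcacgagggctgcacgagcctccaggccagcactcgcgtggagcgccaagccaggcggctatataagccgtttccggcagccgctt
Fkbp5, chr17:28486150-28486399, minus strand: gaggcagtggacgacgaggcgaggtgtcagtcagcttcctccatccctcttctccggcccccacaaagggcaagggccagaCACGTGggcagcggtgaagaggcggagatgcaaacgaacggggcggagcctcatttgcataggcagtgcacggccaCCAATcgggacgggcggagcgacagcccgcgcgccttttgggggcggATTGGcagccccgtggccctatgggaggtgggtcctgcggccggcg
Tsc22d3, chrX:140600523-140600772, minus strand: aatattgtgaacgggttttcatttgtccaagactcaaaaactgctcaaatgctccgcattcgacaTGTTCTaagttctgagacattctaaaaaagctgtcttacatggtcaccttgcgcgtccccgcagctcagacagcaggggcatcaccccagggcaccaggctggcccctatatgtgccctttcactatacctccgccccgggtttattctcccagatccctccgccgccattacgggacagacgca
Arrdc3, chr13:80883134-80883383, plus strand: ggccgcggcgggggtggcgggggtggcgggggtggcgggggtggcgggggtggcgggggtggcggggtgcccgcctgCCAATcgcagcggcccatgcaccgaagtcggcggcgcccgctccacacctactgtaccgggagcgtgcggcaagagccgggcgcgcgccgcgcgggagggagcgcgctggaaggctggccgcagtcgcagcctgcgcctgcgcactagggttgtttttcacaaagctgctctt

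Both strands were searched for the glucocorticoid receptor palindrome in an exact and a relaxed form (2 arms with 3 bases between them), for its single arm AGAACA, for the forkhead motif TGTTTAC and its longer form TTGTTTAC, for the E-box CACGTG, for the carbohydrate response element, and for CCAAT and TATAAA. The relaxed palindrome was found in Txnip alone among the members, 172 to 160 bases before the start, and in 0.387% of all 32851 promoters. The forkhead motif was likewise found once, in Txnip, where TGTTTAC lies on the strand opposite to the gene, 121 to 115 bases before the start (3.17% of all promoters) inside a match of TTGTTTAC (1.07%). The single arm AGAACA was found at 1 start of Tsc22d3, on the strand opposite to the gene, 185 to 180 bases before the start, and 16.1% of all promoters hold it. Fkbp5 had the E-box CACGTG 169 to 164 bases before its start (6.02%) and 2 matches of CCAAT, a motif present in 33.8% of promoters. Txnip also had 2 CCAAT matches, and 2 of the 3 Arrdc3 starts, whose windows overlap, held the same CCAAT. No member window held TATAAA (12.4%), the exact palindrome (0.00913%) or the searched form of the carbohydrate response element. That form was found in 0% of promoters, so its absence cannot show that Txnip or another member lacks the element. Looser forms of the element were not searched for. A match is a description of these letters, not evidence of binding.

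The 23 arrays had medians from 6.87 to 7.13 on the log2 scale. Probe sets for chemosensory receptors, which microglia are not known to express, served to set a level of background: their 95th percentile was 7.85 over all samples and 7.73 to 8.12 within groups. Microglial markers were high in each sample, with P2ry12 between 16.64 and 18.39 and Csf1r between 17.45 and 18.62, and 0 of 13 microglial markers were at background in any group. All 5 monocyte markers and 6 or 7 of 7 T and NK cell markers were at background in each group. So were 4 of 6 neuronal, 4 of 5 oligodendrocyte and 3 or 4 of 8 border macrophage markers. For astrocyte markers the count was 3 or 4 of 6, and for endothelial and pericyte markers 5 or 6 of 8. The border macrophage markers Mrc1 (8.39 to 12.16) and Pf4 (9.03 to 11.06) and the neuronal Snap25 (8.33 to 11.49) were above background in all 23 samples. Mbp of oligodendrocytes (7.45 to 12.11) was above it in some. WT 12 months replicates 2 and 4 stood apart on the second principal component (20.6% of the variance), at 86.2 and 73.0 against -51.6 to 24.8 in the other samples. Results of the 4 genes against WT 12 months are therefore also given without them. Of the called results of pathway genes below, 8 of 30 in gated APP and 9 of 25 in gated TAU were not called without both, and each of those with a level above background is named with its value where it is described.

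Txnip was lower in both gated groups than in every ungated sample. Its log2 signal (RMA, a normalized summary of the probes of a set) was 18.74, 18.80, 18.62 and 18.56 in WT 12 months. In gated APP it was 16.35, 17.14, 16.83 and 16.85, and in gated TAU 17.05, 17.00, 16.70 and 16.73. All 8 gated samples thus lay below all WT samples, with no overlap. The 11 young samples were between 18.39 and 18.95: 18.39, 18.94, 18.70 and 18.51 in WT, 18.95, 18.39 and 18.68 in APP, and 18.58, 18.58, 18.69 and 18.44 in TAU. Against WT 12 months, Txnip fell by 1.89 on the log2 scale in gated APP (3.70-fold, SE 0.171, n = 4 and 4, limma adjusted p = 5.1e-08). It fell by 1.81 in gated TAU (3.51-fold, SE 0.171, limma adjusted p = 1.37e-07), and the same 4 WT samples serve both comparisons. Without WT 12 months replicates 2 and 4 the differences were -1.89 and -1.81. In these bulk samples, fewer cells that hold a transcript and less of it per cell cannot be told apart.

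Among all 22203 probe sets, 3.48% were called lower in gated APP and 3.67% in gated TAU, where called means that the p-value, after Benjamini-Hochberg adjustment across the whole array, was under 0.05. All samples were lower without overlap for 4.83% and 5.55% of probe sets. Of the 4 members, 3 were called lower in each comparison and 0 higher, against 5.6% and 5.09% of probe sets called higher. By p-value Txnip ranked 4 among all probe sets lower in gated APP, and also 4 in gated TAU. The members were chosen with earlier results of these data known, so these counts and ranks describe them and are not independent support.

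Arrdc3, the other alpha-arrestin, had the largest fall of the 4 in gated APP. Its log2 signal was 13.40, 13.68, 13.78 and 13.77 in WT 12 months, 10.81, 10.57, 10.70 and 9.86 in gated APP, and 11.46, 11.23, 10.87 and 11.55 in gated TAU. Its young samples lay between 12.88 and 14.31: 13.67, 14.31, 13.64 and 13.26 in WT, 13.67, 13.43 and 13.13 in APP, and 13.87, 12.95, 13.82 and 12.88 in TAU. The 15 ungated samples were all above the 8 gated ones, and the young TAU samples formed a high and a low pair. Arrdc3 fell by 3.17 in gated APP (9.02-fold, SE 0.26, limma adjusted p = 9.76e-09, rank 2 among lower probe sets). It fell by 2.38 in gated TAU (5.21-fold, SE 0.26, limma adjusted p = 1.24e-06, rank 10), and the differences were -3.11 and -2.31 without WT 12 months replicates 2 and 4.

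The gated groups did not overlap for Arrdc3: the highest gated APP sample was at 10.81 and the lowest gated TAU sample at 10.87. The difference of 0.79 (SE 0.26, 95% interval 0.25 to 1.33) had an unadjusted p of 0.00583 and did not pass adjustment over all probe sets (limma, adjusted p = 0.226). Between the gated groups 0.928% of probe sets were called, and 2.14% had all gated TAU samples higher without overlap. For Txnip the gated groups overlapped, with a difference of 0.08 and a 95% interval from -0.28 to 0.43 (limma adjusted p = 0.967).

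**Figure D1:**
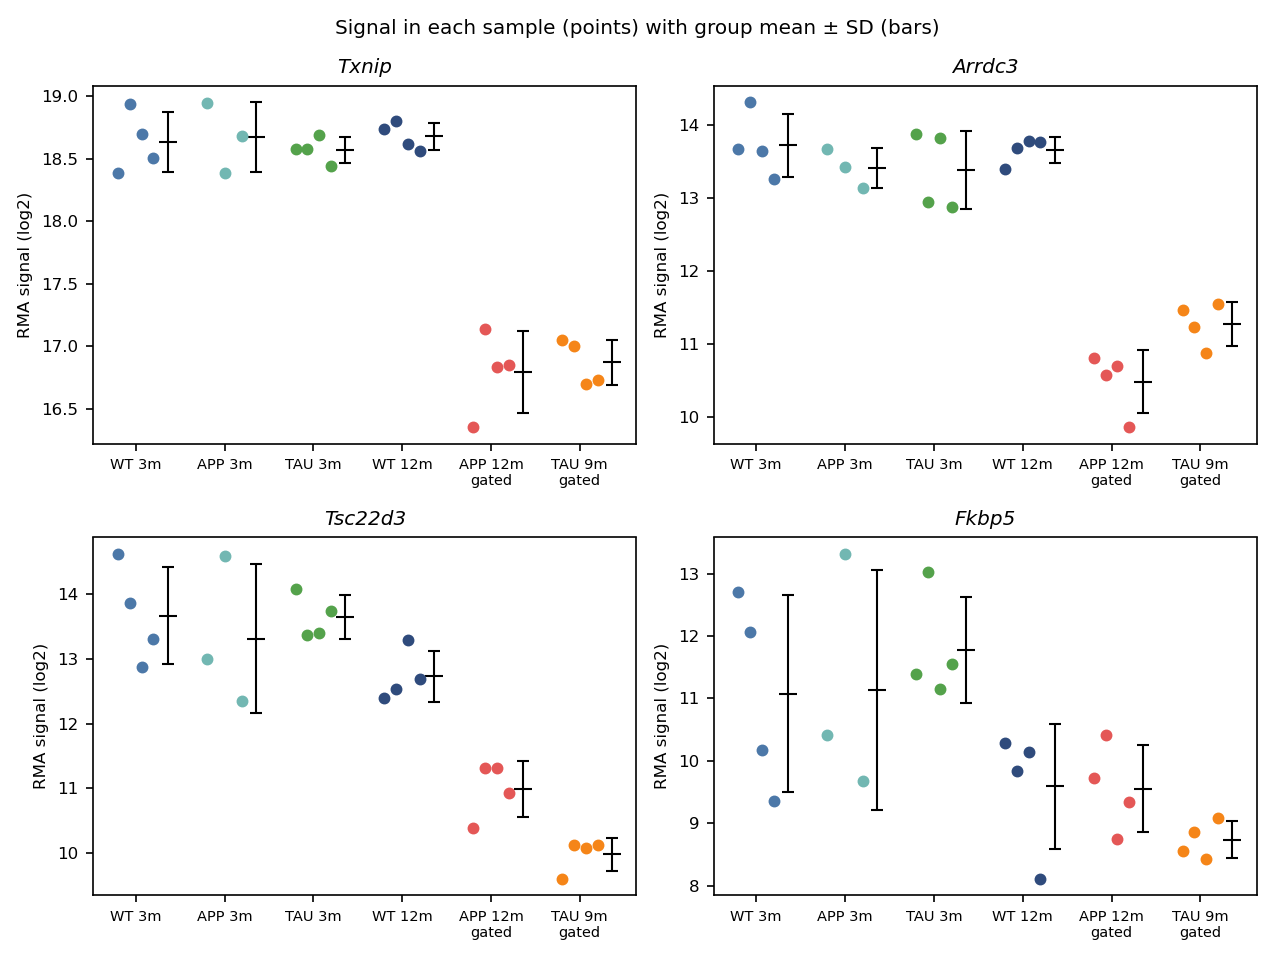
Log2 RMA signal (vertical axis) of the 4 genes in each of the 23 samples by group (horizontal axis); points are samples, and the bars beside them are the group mean ± SD (n = 3 for APP 3 months, 4 for the others). Txnip, Arrdc3 and Tsc22d3 are lower in each gated sample than in each ungated one, while Fkbp5 ranges from 9.35 to 12.71 within WT 3 months alone.

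Tsc22d3, the glucocorticoid-induced leucine zipper gene, was also lower in each gated sample than in each ungated sample. In WT 12 months it was at 12.40, 12.54, 13.30 and 12.69. In gated APP it was at 10.39, 11.32, 11.31 and 10.93, and in gated TAU at 9.60, 10.13, 10.07 and 10.12. The lowest WT 12 months sample lay more than 1 log2 unit above the highest gated sample. Tsc22d3 fell by 1.75 in gated APP (3.35-fold, SE 0.381, limma adjusted p = 0.00361), and it fell by 1.86 without WT 12 months replicates 2 and 4. It fell by 2.75 in gated TAU (6.74-fold, SE 0.381, limma adjusted p = 3.3e-05), and it fell by 2.87 without them. Gated TAU samples were all below gated APP samples, as for 2.56% of probe sets, with a difference of -1.01 (SE 0.381, 95% interval -1.80 to -0.22). That difference had an unadjusted p of 0.0148 and was not called (limma adjusted p = 0.341).

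Among ungated samples Tsc22d3 was spread widely in some groups. It was at 14.63, 13.87, 12.88 and 13.31 in WT 3 months, at 13, 14.59 and 12.35 in APP 3 months, and at 14.09, 13.38, 13.40 and 13.74 in TAU 3 months. Samples of 1 group differed by up to 4.7-fold in APP 3 months and 3.4-fold in WT 3 months, but by 1.6-fold in TAU 3 months and 1.9-fold in WT 12 months, as against 1.9-fold in gated APP and 1.4-fold in gated TAU. WT 12 months was at 12.73 ± 0.40 (SD, n = 4) and WT 3 months at 13.67 ± 0.76 (n = 4), a difference of -0.94 (SE 0.381) that was not called (unadjusted p = 0.0219, limma adjusted p = 0.506).

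Fkbp5, which encodes the receptor's co-chaperone, did not separate the gated samples from WT 12 months. It was at 10.28, 9.83, 10.14 and 8.11 in WT 12 months, at 9.72, 10.41, 8.74 and 9.34 in gated APP, and at 8.56, 8.86, 8.43 and 9.09 in gated TAU. Replicate 4 of WT 12 months held the lowest value of all 23 samples. The difference from WT 12 months was -0.04 in gated APP (SE 0.709, 95% interval -1.51 to 1.43, limma adjusted p = 0.983) and -0.86 in gated TAU (95% interval -2.33 to 0.62, limma adjusted p = 0.524). These intervals do not exclude a change of more than 2-fold in gated APP in either direction, nor, in gated TAU, a fall as large as that of Txnip. Without WT 12 months replicates 2 and 4 the differences were -0.66 and -1.48, neither of them called, and in gated APP the sign turned in other alternatives.

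Young samples held the highest Fkbp5 values, and young WT and young APP samples the widest spread. In WT 3 months Fkbp5 was at 12.71, 12.07, 10.18 and 9.35, a 10.3-fold range. In APP 3 months it was at 10.42, 13.32 and 9.68, a 12.5-fold range. In TAU 3 months it was at 11.39, 13.03, 11.15 and 11.55, a 3.7-fold range, less than the 4.5-fold range of WT 12 months. The lowest young TAU sample was above all gated samples and all WT 12 months samples, but the other young groups overlapped both.

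Set against the same line at 3 months, all 4 genes were called lower in gated TAU, and 3 of 4 in gated APP. Tsc22d3 fell by 3.67 between TAU 3 months and gated TAU (12.8-fold, SE 0.381, limma adjusted p = 5.03e-07), and Fkbp5 fell by 3.05 (8.25-fold, SE 0.709, limma adjusted p = 0.0047). Txnip fell by 1.70 (3.25-fold) and Arrdc3 by 2.10 (4.29-fold), with limma adjusted p = 2.95e-07 and 5.26e-06. In this comparison 6.81% of probe sets were called lower and 8.97% were lower in all samples without overlap, as all 4 members were. Between APP 3 months and gated APP, Tsc22d3 fell by 2.33 (5.01-fold, SE 0.412), Txnip by 1.88 (3.68-fold, SE 0.185) and Arrdc3 by 2.93 (7.59-fold, SE 0.281), with limma adjusted p = 0.000373, 1.85e-07 and 1.37e-07. Fkbp5 overlapped there, with a difference of -1.59 (SE 0.766, limma adjusted p = 0.216), against 5.95% of probe sets called lower and 9.98% lower without overlap.

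WT microglia showed no called change with age in any of the 4, in a comparison where 0.036% of probe sets were called in either direction. The differences between 12 and 3 months were 0.04 for Txnip (95% interval -0.31 to 0.40) and -0.06 for Arrdc3 (-0.60 to 0.48). For Fkbp5 the difference was -1.49 (95% interval -2.96 to -0.02, unadjusted p = 0.0476, limma adjusted p = 0.556). The change in each line minus the change in WT was then tested. For Txnip it was -1.93 in APP (SE 0.252, limma adjusted p = 3.26e-05) and -1.75 in TAU (SE 0.242, adjusted p = 8.43e-05). For Arrdc3 it was -2.86 in APP (SE 0.382, limma adjusted p = 4.25e-05) and -2.04 in TAU (SE 0.367, adjusted p = 0.00166). Tsc22d3 passed in TAU, at -2.73 (SE 0.539, limma adjusted p = 0.00429), but not in APP, at -1.39 (SE 0.561, adjusted p = 0.22). Fkbp5 passed in neither, at -1.56 in TAU and -0.10 in APP (limma adjusted p = 0.446 and 0.978). These terms were called lower for 0.977% of probe sets in APP and 1.15% in TAU, and both subtract the same WT change.

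In young mice neither transgene went with a called change in the 4 genes. The differences of APP 3 months from WT 3 months were 0.04 for Txnip (95% interval -0.34 to 0.42), -0.31 for Arrdc3 (-0.89 to 0.27), -0.36 for Tsc22d3 (-1.21 to 0.49) and 0.06 for Fkbp5 (-1.53 to 1.65). Those of TAU 3 months were -0.06 for Txnip (-0.42 to 0.29), -0.34 for Arrdc3 (-0.88 to 0.20), -0.02 for Tsc22d3 (-0.81 to 0.77) and 0.70 for Fkbp5 (-0.77 to 2.17). The WT 3 months samples serve both comparisons. In each, limma called 0 probe sets (0.0%), while 648 in APP and 922 in TAU had an unadjusted p under 0.05. No gene of the 9 lists below was called in either. The mean of Y-linked genes was at 6.98 to 7.46 in WT 3 months, 4.14 to 4.62 in APP 3 months and 4.0 to 6.88 in TAU 3 months. Of the 3 Y-linked genes measured, 1 was at background in WT 3 months and 3 in every other group. Among the later samples the same mean was at 6.06 to 7.31 in WT 12 months, 4.16 to 7.13 in gated APP and 4.5 to 6.78 in gated TAU. With that mean as a covariate, the Arrdc3 difference was 0.25 in APP and 0.12 in TAU, not called. The intervals bound a change of Txnip to less than 1.5-fold in either line, and leave room for a change of Fkbp5 of more than 2-fold.

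**Figure D2:**
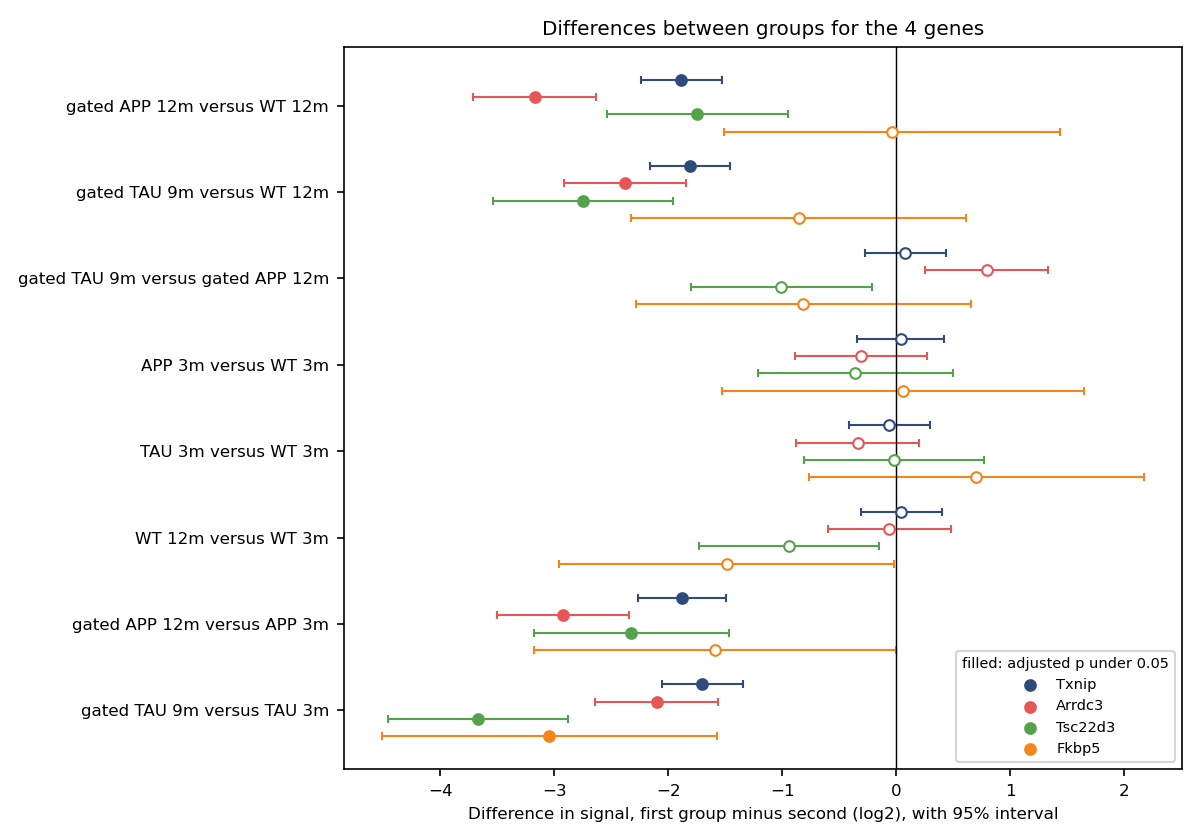
Difference in log2 signal between groups (horizontal axis, first group minus second, with the 95% interval of the limma fit) for 8 comparisons and 4 genes; filled points have an adjusted p under 0.05. Txnip, Arrdc3 and Tsc22d3 are filled in the 4 comparisons of gated with ungated samples, and Fkbp5 only against TAU 3 months, where it fell by 3.05.

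Ordered by group mean, Txnip ran from WT 12 months (18.68 ± 0.11, SD, n = 4) through APP 3 months (18.67 ± 0.28, n = 3), WT 3 months (18.64 ± 0.24) and TAU 3 months (18.57 ± 0.10) to gated TAU (16.87 ± 0.18) and gated APP (16.79 ± 0.33). Arrdc3 ran from WT 3 months (13.72 ± 0.44) and WT 12 months (13.66 ± 0.18) through APP 3 months (13.41 ± 0.27) and TAU 3 months (13.38 ± 0.54) to gated TAU (11.28 ± 0.30) and gated APP (10.48 ± 0.43). For Tsc22d3 the order was WT 3 months (13.67 ± 0.76), TAU 3 months (13.65 ± 0.34), APP 3 months (13.31 ± 1.15), WT 12 months (12.73 ± 0.40), gated APP (10.99 ± 0.44) and gated TAU (9.98 ± 0.25). In all 3 genes the only neighbours in the order with a called difference were the lowest ungated and the highest gated group (limma). For Fkbp5 the order was TAU 3 months (11.78 ± 0.85), APP 3 months (11.14 ± 1.92), WT 3 months (11.08 ± 1.57), WT 12 months (9.59 ± 1.0), gated APP (9.55 ± 0.70) and gated TAU (8.74 ± 0.30), with no neighbours called. Groups farther apart in that order were called: gated TAU against each young group and gated APP against TAU 3 months (a difference of 2.23, limma adjusted p = 0.0406).

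The 4 genes differed in how far replicates lay apart. Over the 15 ungated samples the pooled SD within groups was 0.19 for Txnip, 0.39 for Arrdc3, 0.69 for Tsc22d3 and 1.35 for Fkbp5. Among the 7952 probe sets above background, whose median SD was 0.35, these stood at percentiles 5.0, 60.6, 93.2 and 97.5. Over the 8 gated samples the SD was 0.26, 0.37, 0.36 and 0.54, at percentiles 32.1, 64.4, 60.8 and 88.6, beside a median of 0.32. Pooled over the ungated groups, the alpha-arrestins were thus steadier among replicates than the glucocorticoid-induced pair. In TAU 3 months alone the SD of Arrdc3 (0.54) was above that of Tsc22d3 (0.34). This spread is a description, with no test, of genes chosen with their spread in view.

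The glucocorticoid-induced pair was then compared sample by sample, as the difference of each sample from its group mean. Over the 15 ungated samples these differences gave Pearson r = 0.71 for Tsc22d3 and Fkbp5 (permutation within groups, p = 0.0434) and Spearman rho = 0.64 (p = 0.0638). APP 3 months replicate 2 and WT 3 months replicate 1 were high for both genes, and APP 3 months replicate 3 was low for both. Adjusted over the 12 relations computed (6 pairs of genes in ungated and in gated samples), neither passed, at 0.521 and 0.492. Without the 2 samples farthest from the median of Tsc22d3, r was 0.44, so the relation rests in part on those samples. In the 8 gated samples r was 0.04 (exact permutation within groups over 576 arrangements, p = 0.922). Txnip and Arrdc3 gave r = 0.48 in ungated samples (permutation p = 0.09, adjusted p = 0.54) and -0.14 in gated samples (exact permutation p = 0.753).

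**Figure D3:**
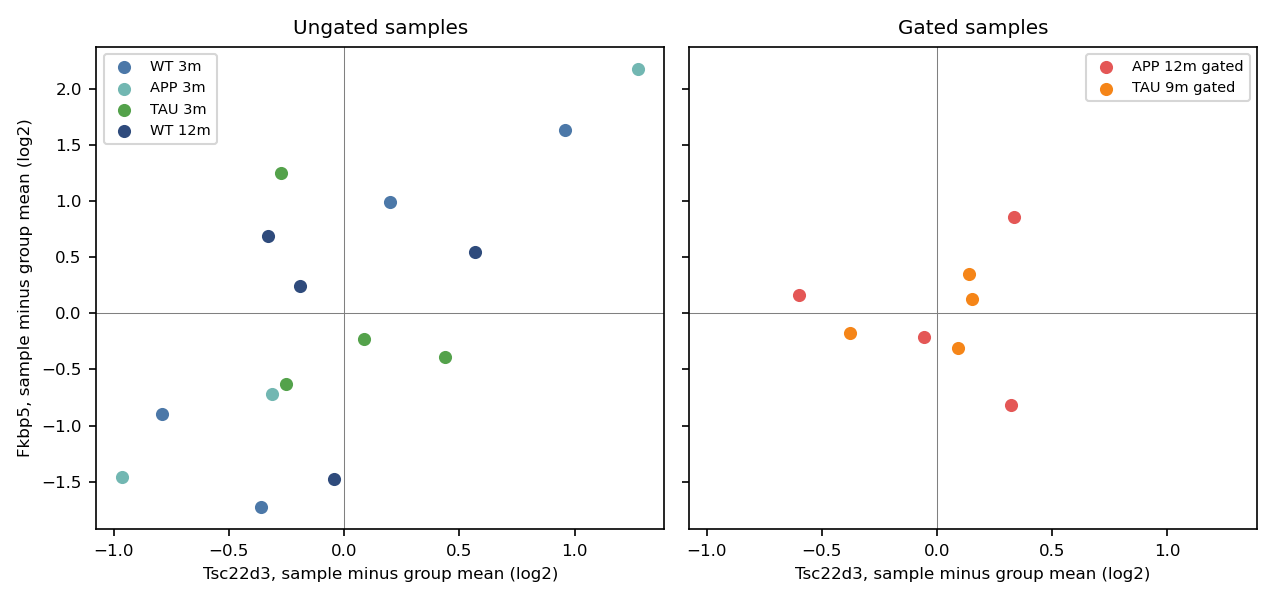
Each sample minus its group mean, in log2 units, for Tsc22d3 (horizontal axis) and Fkbp5 (vertical axis), in 15 ungated samples (left) and 8 gated samples (right), coloured by group. Ungated points spread from the lower left to the upper right (r = 0.71, adjusted p = 0.521 by permutation), and gated points lie closer to the centre with no such slope (r = 0.04).

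Markers of other cells and of tissue handling were set beside this spread. The mean of 25 immediate early and heat shock genes, which rise during cell isolation, gave r = 0.52 with Fkbp5 over the ungated samples (permutation p = 0.123, rho = 0.53, r = 0.56 without the 2 farthest samples). The mean of 6 astrocyte markers gave r = 0.42 (permutation p = 0.253), and that of the microglial markers -0.05. Of 104 such relations of the 4 genes with list means, 2 had an unadjusted p under 0.05 and 0 passed adjustment (smallest adjusted p = 0.792). Both were in ungated samples. Txnip gave r = 0.73 with the microglial markers (permutation p = 0.0114). Fkbp5 gave r = -0.55 with the T and NK cell markers (permutation p = 0.0332), which lay at background there. The immediate early list itself was at 13.56 to 14.58 per sample in ungated and 12.88 to 13.33 in gated samples, and the microglial list at 15.16 to 15.90 and 14.44 to 14.87. Neutrophil markers were at 5.94 to 8.92 in ungated and 5.48 to 5.76 in gated samples, where all 6 measured were at background, among them S100a8. In each ungated group 4 or 5 of the 6 were at background as well. In each gated group 1 of 6 was called lower against WT 12 months (limma), beside 3.48% of all probe sets in gated APP and 3.67% in gated TAU. Border macrophage markers were at 8.07 to 8.30 in gated APP against 8.70 to 8.99 in WT 12 months and 9.53 to 9.85 in APP 3 months. They were at 8.85 to 9.71 in gated TAU. In gated APP 2 of 8 were called lower against WT 12 months (limma), beside 3.48% of all probe sets. Against APP 3 months 6 of 8 were called lower, beside 5.95% of all probe sets. The means of the immediate early, microglial and neutrophil lists were lower in all gated than in all ungated samples, as Txnip, Arrdc3 and Tsc22d3 were. In gated APP the border macrophage mean was lower too. Most neutrophil markers lay at background throughout, and the part of these lists in the falls of the 3 genes was not tested.

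In the fit on all 23 samples, no receptor or FoxO gene behind these targets was called in either gated group against WT 12 months. Nr3c1, the glucocorticoid receptor, was near background, at 8.04 ± 0.46 (SD, n = 4) in WT 12 months, 7.85 ± 0.37 in gated APP and 7.84 ± 0.41 in gated TAU (limma adjusted p = 0.703 and 0.685). Nr3c2, the mineralocorticoid receptor, which also binds corticosterone, was at 8.65 ± 0.71, 8.58 ± 0.57 and 7.83 ± 0.30 (adjusted p = 0.927 and 0.113). Without WT 12 months replicates 2 and 4 together, Nr3c2 was called lower in gated TAU, at -1.38 (limma adjusted p = 0.0175). Foxo1 and Foxo3 were at or below background in these 3 groups, with means of 7.04 to 7.33 and 5.78 to 5.89. Over all probe sets, 5.6% were called higher and 3.48% lower in gated APP, and 5.09% and 3.67% in gated TAU. These shares belong beside the counts of this list and of those below. Of 11 measured genes of the receptor machinery, 0 were called higher and 2 lower in each gated group, with medians of -0.29 in gated APP and -0.21 in gated TAU against -0.06 and -0.05 over all probe sets. These were Hsp90aa1, the inducible chaperone that holds the receptor, at -1.42 and -1.21 (limma adjusted p = 0.00585 and 0.0212), and Crebbp, a coactivator of many nuclear receptors, at -0.72 and -0.68 (0.0272 and 0.0406). The Crebbp call in gated APP was lost without WT 12 months replicate 1 or 3 or gated APP replicate 1, 3 or 4 (adjusted p up to 0.0922). In gated TAU it was lost without WT 12 months replicate 1 or 3 or gated TAU replicate 1 or 2 (up to 0.12). With 1 library out, the count lower in gated APP was 1 without each library named for Crebbp, 1 was called higher there without WT 12 months replicate 3, and that in gated TAU was 0 without WT 12 months replicate 1 or gated TAU replicate 1. Hsp90aa1 lost its call in gated TAU without WT 12 months replicate 1 or 2 or gated TAU replicate 1 or 3 (up to 0.0933).

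Other genes that glucocorticoids are known to induce went both ways. Of 23 measured, 3 were called higher and 4 lower in gated APP, and 2 higher and 4 lower in gated TAU. The list medians were -0.19 and -0.15. The shares over all probe sets were 5.6% higher and 3.48% lower in gated APP, and 5.09% and 3.67% in gated TAU. Whether the list differed from the array was not tested. The 4 lower in gated APP became 2 without WT 12 months replicate 1, WT 12 months replicate 2 or gated APP replicate 3, 2 with centred arrays or a fit on the compared groups, and 1 without WT 12 months replicates 2 and 4 together. The 2 higher in gated TAU became 1 without WT 12 months replicate 2, 3 or 4 or gated TAU replicate 2, 3 or 4. The metallothionein genes Mt1 and Mt2, metal-binding proteins, rose in gated APP by 1.78 (3.43-fold, SE 0.202, limma adjusted p = 1.41e-06) and 1.20 (2.29-fold, SE 0.24, adjusted p = 0.00166). Mt1 rose in gated TAU by 1.11 (limma adjusted p = 0.000856) and Mt2 by 0.80 (adjusted p = 0.0409), the latter call lost without WT 12 months replicate 2, 3 or 4 or gated TAU replicate 2, 3 or 4 (up to 0.132), and without WT 12 months replicates 2 and 4 together (0.154). Rhob, a small GTPase, fell by 1.29 and 1.11 (limma adjusted p = 6.76e-05 and 0.000554). Per1, a clock gene induced by the receptor, fell 2.82-fold in gated TAU (limma adjusted p = 0.000983) and differed by -0.77 in gated APP (adjusted p = 0.0924). Errfi1, an inhibitor of EGF receptor signalling, rose by 1.16 in gated APP (limma adjusted p = 0.0201), a call lost without WT 12 months replicate 2 or 4 or gated APP replicate 3 (up to 0.0886). The Errfi1 value was 0.715 without WT 12 months replicates 2 and 4 together (limma adjusted p = 0.341); in gated TAU the value was 0.21 (adjusted p = 0.746). Sgk1, Zbtb16, Klf9 and Ddit4, classic targets of the receptor named here after their values were seen, had values from -0.67 to 0.33, none called.

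The remaining calls of that list were Dusp1, Cebpd and Sult1a1, with Dusp1 and Sult1a1 named after their values were seen. Dusp1, a phosphatase of MAP kinases, was at 19.22 ± 0.10 in WT 12 months and fell by 0.48 in gated APP and 0.62 in gated TAU (limma adjusted p = 0.0322 and 0.00677). In gated APP it lost its call without WT 12 months replicate 1, 2 or 4 or gated APP replicate 2 or 3 (up to 0.108), and without WT 12 months replicates 2 and 4 together (0.2). In gated TAU it lost it in a fit on the compared groups only (Dusp1 adjusted p = 0.0915, limma) and without WT 12 months replicates 2 and 4 together (0.0685). Cebpd, a transcription factor, was below background in all 3 groups, so that no fold is given. Sult1a1, a sulfotransferase, was at background in gated APP, at least 1.58-fold lower than in WT 12 months (limma adjusted p = 0.0294), a call lost without WT 12 months replicate 1 or 2 or gated APP replicate 1 or 3 (up to 0.145), and without WT 12 months replicates 2 and 4 together (0.126). The Dusp1 probe set, and that of Hsp90aa1 from the receptor machinery, also count among the immediate early and heat shock genes. Of these, 15 of 25 were called lower and 0 higher in gated APP. In gated TAU 13 were called lower and 1 higher, and the medians were -1.21 in gated APP and -1.0 in gated TAU. In that list Jun fell by 1.81 and 1.80 (limma adjusted p = 4.59e-07 and 7.18e-07), and Dnajb1, a heat shock co-chaperone, was lower with differences of -1.83 and -2.20 (0.00389 and 0.000916). Hspa1a, an inducible heat shock protein, was at -1.99 in gated APP (limma adjusted p = 0.049), a call lost in 18 of 23 fits with 1 sample left out (up to 0.198) and without WT 12 months replicates 2 and 4 together (0.136). Egr3, a growth response factor and the 1 call higher in gated TAU, was at background in WT 12 months. It was at least 1.22-fold higher in gated TAU (limma adjusted p = 0.0389), by the brightest of its 3 probe sets. The Egr3 call was lost without WT 12 months replicate 1, 2 or 3, without any 1 gated TAU sample (up to 0.103), and without WT 12 months replicates 2 and 4 together (0.0906).

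FoxO targets also went both ways, with 24 of 26 measured. In gated APP 3 were called higher and 2 lower (median 0.12), and in gated TAU 2 and 2 (median -0.20), where 1 was higher without each library named for Gabarapl1 below. The shares over all probe sets were 5.6% higher and 3.48% lower in gated APP, and 5.09% and 3.67% in gated TAU. Whether this list differed from the array was not tested. Il7r, the interleukin 7 receptor, and Klf2, a quiescence factor, both textbook FoxO1 targets in lymphocytes, were at 10.08 ± 0.31 and 9.87 ± 0.86 in WT 12 months and at background in both gated groups. Il7r was at least 5.02-fold lower in gated APP and 4.78-fold lower in gated TAU (limma adjusted p = 9.93e-05 and 9.91e-05), counted to the level of background. Klf2 was at least 4.32-fold and 4.12-fold lower (limma adjusted p = 0.000353 and 0.00116). Sod2, the mitochondrial superoxide dismutase, went the other way from background in WT 12 months, at least 3.56-fold higher in gated APP and 3.35-fold higher in gated TAU (limma adjusted p = 2.97e-05 and 7.69e-05). Gabarapl1, an autophagy gene, rose by 0.82 and 0.63 (limma adjusted p = 0.00442 and 0.0314), the TAU call lost without WT 12 months replicate 2 or 4 or gated TAU replicate 2 or 3 (up to 0.137). Without WT 12 months replicates 2 and 4 together it was called in neither group (up to 0.284). Gadd45a, a stress gene, was at least 1.47-fold higher in gated APP (limma adjusted p = 0.000648) and at 0.33 in gated TAU (adjusted p = 0.299).

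Upstream of FoxO, 14 of 16 genes of the PI3K and Akt pathway were measured. In gated APP 1 was called higher and 1 lower, and in gated TAU 1 higher and 2 lower, with medians of -0.12 and -0.16. The shares over all probe sets were 5.6% higher and 3.48% lower in gated APP, and 5.09% and 3.67% in gated TAU. The 1 lower in gated APP became 2 in 7 of the leave-one-out fits, and in gated TAU 2 were higher without WT 12 months replicate 3. The higher one was Igf1, the growth factor ligand and a marker of disease-associated microglia, at 8.82 ± 0.15 in WT 12 months, 16.74 ± 0.39 in gated APP and 13.07 ± 0.74 in gated TAU (limma adjusted p = 1.36e-15 and 8.35e-11). The disease-associated list, which also holds Igf1, was at 10.17 to 10.72 per sample in ungated and 14.10 to 15.42 in gated samples. Inpp5d, the lipid phosphatase SHIP1, fell by 0.84 and 0.83 (limma adjusted p = 0.00462 and 0.00639). Pik3r1, a regulatory subunit of PI3K, was at -0.90 in gated APP (limma adjusted p = 0.0512) and at -0.96 in gated TAU (0.0375), where any 1 of 6 libraries left out ended the call: WT 12 months replicates 1 and 3 and each gated TAU sample (up to 0.113).

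Relatives of the 4 genes went both ways. Arrdc4, the alpha-arrestin nearest in function to Txnip and also driven by the glucose-sensing factors, rose from 9.64 ± 0.46 in WT 12 months to 11.87 ± 0.30 in gated APP (4.68-fold, SE of the log2 difference 0.298, limma adjusted p = 1.46e-05). In gated TAU it rose to 11.27 ± 0.36 (3.08-fold, limma adjusted p = 0.000921), while Txnip and Arrdc3 fell. Of the 5 measured arrestins other than the members, Arrdc4 was the only one called higher; Arrb1, beta-arrestin 1, was called lower in gated APP, at -1.03 (limma adjusted p = 0.0407). The Arrb1 call was lost without WT 12 months replicate 1 or 3 or gated APP replicate 1 or 4 (up to 0.151). In the TSC22 family, Tsc22d2 fell by 1.09 in gated APP (limma adjusted p = 0.00616) and by 0.86 in gated TAU (0.035), the latter lost without WT 12 months replicate 1, 3 or 4 or gated TAU replicate 1 or 4 (up to 0.132). Tsc22d1 rose 2.01-fold in gated APP (limma adjusted p = 0.00465) and was at -0.12 in gated TAU (adjusted p = 0.803), while Tsc22d4, named after its values were seen, was called in neither. Of the 3 relatives, 2 were called lower in each gated group without WT 12 months replicates 2 and 4 together. Of 12 measured FKBP immunophilins other than Fkbp5, 3 were called higher in gated APP, 1 in gated TAU and 0 lower. Of all probe sets, 5.6% were called higher in gated APP and 5.09% in gated TAU. Fkbp2, which resides in the endoplasmic reticulum, rose by 1.45 in gated APP (limma adjusted p = 0.00263), while Fkbp1b, the 1 call in gated TAU, was below background in all 3 groups. That call was lost without gated TAU replicate 1 or 3 (up to 0.0871), in a fit on the compared groups (0.108) and without WT 12 months replicates 2 and 4 together (Fkbp1b limma adjusted p = 0.0647), when the family counted 0 higher and 1 lower in gated TAU. Fkbp1a, the FK506 target, rose by 0.67 (limma adjusted p = 0.0191), a call lost without WT 12 months replicate 4 or gated APP replicate 1 or 3 (up to 0.0652), and without WT 12 months replicates 2 and 4 together (0.0788).

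Against WT 12 months, 4 of the 15 measured partners of Txnip and Arrdc3 were called higher and 0 lower in each gated group (medians 0.35 and 0.14). Against the same line at 3 months, 4 were higher and 2 lower in gated APP, and 4 and 1 in gated TAU. Over all probe sets, 6.19% were called higher and 5.95% lower in that comparison of gated APP, and 6.67% and 6.81% in that of gated TAU. Against WT 12 months, 5.6% and 5.09% of all probe sets were called higher. The 4 higher in gated TAU against WT 12 months became 2 without WT 12 months replicate 4 or in a fit on the compared groups, and 1 without WT 12 months replicates 2 and 4 together. In gated APP 1 was called lower without gated APP replicate 2. Slc2a1, the glucose transporter GLUT1 whose uptake Txnip limits, rose by 2.57 in gated APP (5.93-fold, SE 0.274, limma adjusted p = 6.16e-07) and by 1.15 in gated TAU (2.22-fold, adjusted p = 0.00896). Without WT 12 months replicates 2 and 4 the TAU value was 0.77 and not called (limma adjusted p = 0.184). Txn1, the thioredoxin that Txnip binds, rose by 1.25 and 1.21 (limma adjusted p = 7.73e-05 and 0.000171). Txnrd2, the mitochondrial thioredoxin reductase, rose by 1.05 and 0.73 (0.000369 and 0.0124), and Txn2, mitochondrial thioredoxin, by 0.88 in gated TAU (0.0287), both named after their values were seen. Txnrd1, the cytosolic reductase, rose by 1.94 in gated APP (limma adjusted p = 0.0159). The Txnrd1 call was lost without WT 12 months replicate 2 or 4 or gated APP replicate 3 (up to 0.0735), that of Txnrd2 in gated TAU without WT 12 months replicate 4 (0.0584), and that of Txn2 without WT 12 months replicate 2 or 4 or gated TAU replicate 1, 2 or 3 (up to 0.12). Once WT 12 months replicates 2 and 4 were omitted, Txnrd1 in gated APP was at 1.1 (limma adjusted p = 0.348), and in gated TAU Txnrd2 was at 0.63 (0.0894) and Txn2 at 0.55 (0.323). Mlxip, Mlxipl and Mlx, the glucose-sensing factors that drive Txnip, and the ubiquitin ligases Nedd4, Nedd4l, Itch, Wwp1 and Wwp2, which arrestins recruit, all named after their values were seen, were called in neither group.

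**Figure D4:**
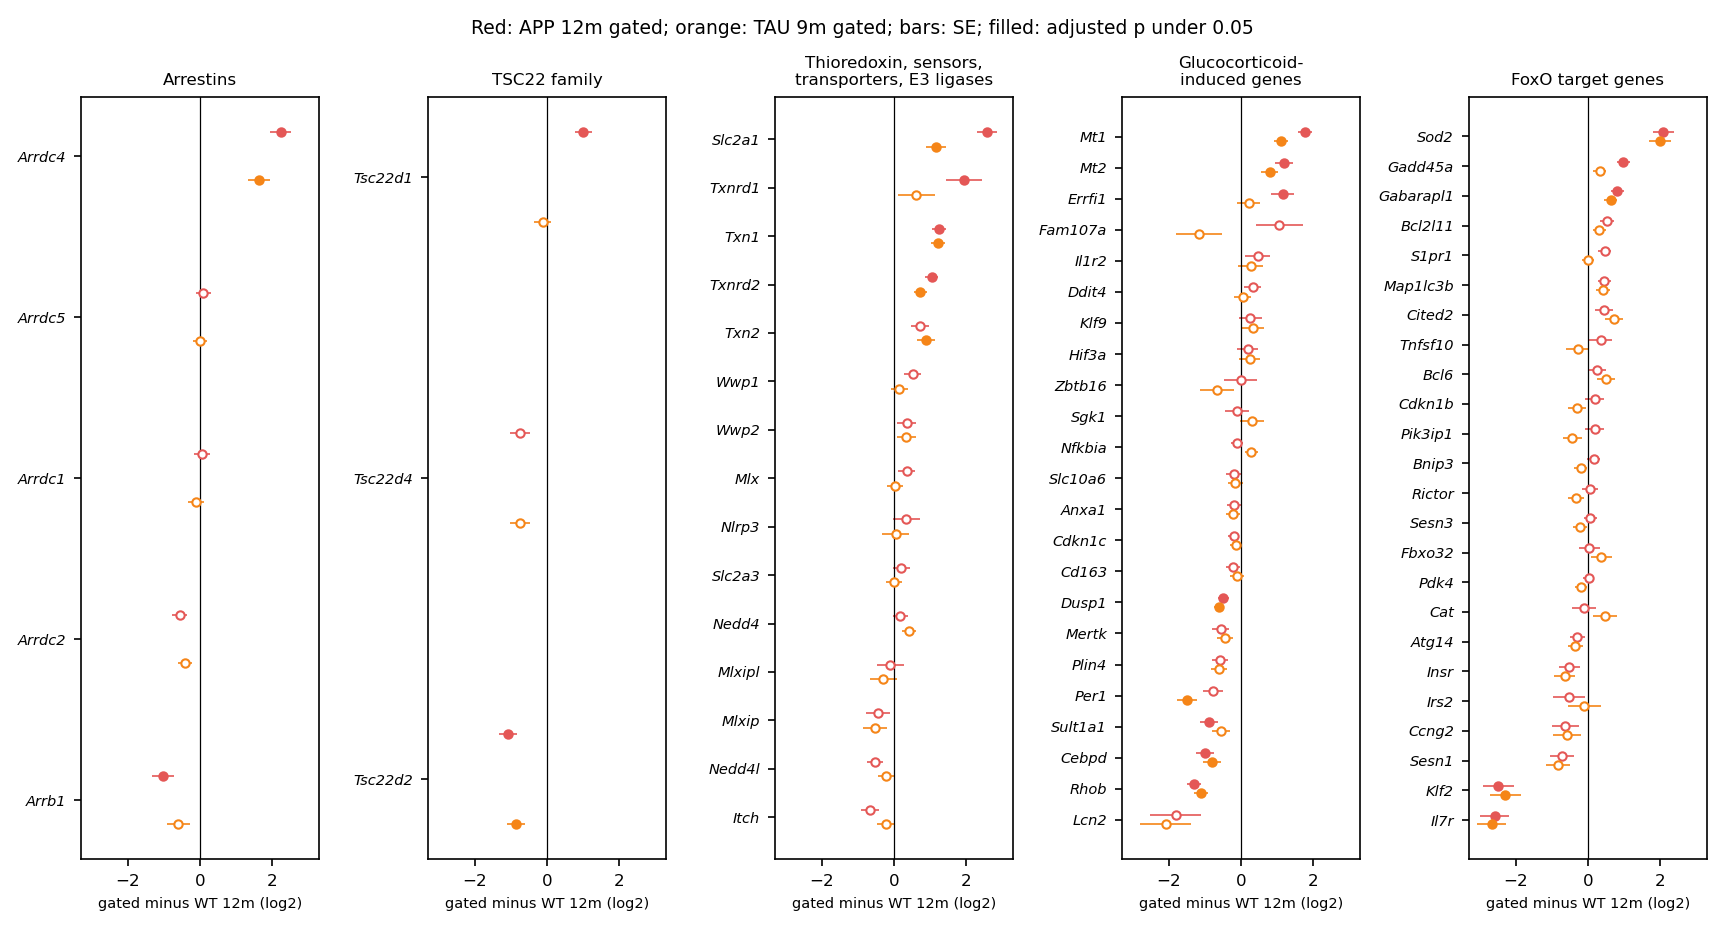
Log2 difference of each gated group from WT 12 months (horizontal axis, with SE) for genes of 5 lists (panels); red is gated APP, orange gated TAU, and filled points have a limma adjusted p under 0.05. Arrdc4, Slc2a1, Txn1, Mt1 and Sod2 lie to the right of 0 in both groups, and Rhob, Klf2 and Il7r to the left.

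The genes whose levels over the 23 samples were most like those of each member were sought among 6840 genes above background; the gate divides these samples, so high values of r are common, and they are given as a description. For Txnip they were Agmo, Bank1 (both r = 0.97), Pld1, Cd164 and Lgmn (0.96). For Arrdc3 they were Agmo (0.97), Txnip, Bank1, Ecscr and Tmem119 (0.94), so that the pair shared Agmo and Bank1, and Txnip was itself among the nearest 5 of Arrdc3. For Tsc22d3 they were Ypel5 (0.94), Fam126a (0.93), Pcf11, Il7r and Ptpro (0.92), and for Fkbp5 Dhx9 and Jade2 (0.90), Osbpl11 (0.88), Cables1 and B4galt1 (0.87). Deviations from the group means, which leave out the gate, gave other neighbours. For Fkbp5 these were Mras (0.90), Abhd15 and Dhx9 (0.86), 9930111J21Rik2 (0.85) and Slc1a3 (0.83), the last a gene of the astrocyte list. For Tsc22d3 they were Kcnrg (0.76), Snx25, Bcl10 (0.75), Anapc16 (0.74) and Fam126a (0.73), and for Arrdc3 the histone genes H4c14 (0.75) and H4c18 (0.74), Eola1 (0.73), Slc25a45 and Tmem43 (0.70). For Txnip they were Dhx29 (0.85), Ankle2 (0.81), Stx2, Leprotl1 and Zmym2 (0.79), of which 2 of 5 stayed among the nearest when each array was centred on its median.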

How the data were processed

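RNA (5 ng per sample) was amplified, biotin-labelled and hybridised to 3′ expression arrays, per the labels' protocols. For each array the authors deposited RMA signals on the log2 scale, from the Transcriptome Analysis Console per the submitters' processing notes; they were used as deposited. A symbol was given for 19572 of 22203 probe sets, and of several for 1 symbol the highest by mean was used. All 23 samples entered 1 limma model (limma 3.58.1, R 4.3.3) with 6 group means and no covariate (17 residual and 5.11 prior degrees of freedom), with two-sided tests adjusted by the Benjamini-Hochberg method over the array. Precision was limited by the few arrays per group: a log2 difference had a median SE of 0.226. On simulated data in the layout of gated APP against WT 12 months (22203 probe sets), 68 of 100 shifts of 1 and 93 of 100 shifts of 2 log2 units were called, with 8 of 22003 unshifted probe sets.

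The members and lists were chosen with earlier results of these data known. Named were the members, the receptor and factor genes, from each list at most the 3 largest rises and falls called in a gated group against WT 12 months, and the 5 genes most like each member; pathway genes outside this rule are said to be named after their values were seen. Where 1 group lay at background, a fold was counted to that group's background or its mean, whichever was higher. Correlations used 100000 permutations within groups, or all 576 arrangements of the 8 gated samples. Alternatives were a fit on the compared groups, centred arrays, no dim probe sets, array weights, another prior, a replicate block, a Y-linked covariate, each sample left out, and WT 12 months replicates 2 and 4 left out; for pathway genes they were added after seeing the data.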

Additional observations from a re-analysis of the deposited data

Results flagged for a closer look

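In gated TAU, 1 Tsc22d3 sample lay apart from the other 3, at 9.60 against 10.07 to 10.13. Dixon's test was applied to 20 groups of the 4 genes, and chance marks about 1 in 20 such groups.

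The change with age differed between lines by the interaction term for Txnip in APP (-1.93) and TAU (-1.75), for Arrdc3 in APP (-2.86) and TAU (-2.04) and for Tsc22d3 in TAU (-2.73). The later samples of both lines were sorted as Clec7a positive and the WT samples were not, so that age, strain and gate cannot be told apart in these terms.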

How the results depend on the processing

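All 18 called results of the 4 genes kept their direction and call in each of the 32 alternatives (576 of 576 values). Of the 22 results that were not called, 0 of 704 values became called and 42 turned in sign. For Fkbp5 in gated APP against WT 12 months the value was 0.0375 with arrays centred on their medians, 0.139 with array weights and 0.0903 with the Y-linked covariate. In APP 3 months against WT 3 months, Fkbp5 was -0.703 with array weights and -0.157 with the replicate block, and Arrdc3 was 0.251 with the Y-linked covariate. In TAU 3 months against WT 3 months, Tsc22d3 was 0.0658 with array weights, and with the Y-linked covariate Tsc22d3 was 0.161, Txnip 0.0420 and Arrdc3 0.116. In WT 12 against 3 months, Txnip was -0.025 with centred arrays and Arrdc3 0.0352 with the Y-linked covariate. The Fkbp5 change in APP minus that in WT was 0.000833 with centred arrays, 0.842 with array weights and 0.120 with the replicate block. The cause of these turns was not tested, except that none of the values was called.

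With each sample left out in turn, Fkbp5 in gated APP ran from -0.531 to 0.233, and Txnip between the gated groups from -0.07 to 0.193. In APP 3 months, Tsc22d3 ran from -0.998 to 0.123, Fkbp5 from -1.03 to 0.793 and Txnip from -0.1 to 0.18. In TAU 3 months, Tsc22d3 ran from -0.284 to 0.299 and Txnip from -0.144 to 0.0392. In WT with age, Txnip ran from -0.0367 to 0.147 and Arrdc3 from -0.216 to 0.134, and the Fkbp5 change in APP minus that in WT from -0.83 to 0.99. Nr3c2, Egr3 and Foxo3 in gated APP ran from -0.293 to 0.238, -0.02 to 0.132 and -0.13 to 0.0, and Tsc22d1 in gated TAU from -0.215 to 0.0117.

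Of 55 called values of pathway genes, 32 were called in every alternative and 0 turned in sign. A fit on the compared groups ended the calls of Gabarapl1, Crebbp, Arrb1, Dusp1 and Sult1a1 in gated APP (limma adjusted p up to 0.148). In gated TAU it ended those of Mt2, Gabarapl1, Hsp90aa1, Crebbp, Tsc22d2, Fkbp1b, Egr3, Dusp1, Txnrd2 and Txn2 (limma adjusted p up to 0.143). With centred arrays Crebbp, Arrb1, Hspa1a, Dusp1 and Sult1a1 were lost in gated APP, and Cebpd, Crebbp, Pik3r1 and Tsc22d2 in gated TAU. Of values that were not called, Nr3c2 in gated APP was 0.0075 with centred arrays, 0.0690 with array weights and 0.0919 with the Y-linked covariate, Foxo3 in gated APP was 0.0075 with centred arrays, and Tsc22d1 in gated TAU was 0.0797 with the Y-linked covariate. Without WT 12 months replicates 2 and 4, Errfi1 was -0.233 and Txnrd1 -0.22 in gated TAU.

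Counts of called probe sets moved more. Fitted on the compared groups only, they were 1326 in gated APP and 1218 in gated TAU against WT 12 months (2015 and 1946 as reported), 120 between the gated groups (206), 93 in APP 3 months (0) and 5 in WT 12 against 3 months (8). Without WT 12 months replicates 2 and 4 they were 1264, 1227 and, in WT with age, 1, and for the TAU change minus the WT change 464 (832). Without dim probe sets they were 126 between the gated groups and 3 in WT with age, where centring also gave 3. With array weights they were 8 in APP 3 months, 13 in WT with age, 4079 in gated APP against APP 3 months (2695), and 1575 (844) and 1460 for the changes in APP and TAU minus that in WT. The Y-linked covariate gave 447 and 502 for those changes. With each sample left out in turn, counts ran from 1508 to 2807 (gated APP) and 1396 to 2526 (gated TAU) against WT 12 months, 147 to 225 between the gated groups, 0 in APP 3 months, 0 to 1 in TAU 3 months, 0 to 88 in WT with age, 1643 to 2883 and 2136 to 3186 for gated APP and gated TAU against the same line at 3 months, and 597 to 1190 and 541 to 1356 for the changes minus that in WT. Single samples moved counts by more than 1.5 times for gated APP against APP 3 months (1643 without APP 3 months replicate 2) and for the TAU change minus the WT change (541 without TAU 3 months replicate 3, 1356 without WT 12 months replicate 3), and in WT with age 88 were called without WT 12 months replicate 3.

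Same-numbered samples were not treated as paired, since the labels tie no number to an animal or day and not every such pair correlated above 0.1. Deviations from group means correlated at -0.59 to 0.64 over 55 same-numbered pairs (32 above 0.1), with a mean of 0.151 against -0.051 for differently numbered ones. Of 23 samples, 13 correlated best with their own number, a hint from the data and not from the design. With the replicate block, limma called 2344 probe sets in gated APP and 2369 in gated TAU against WT 12 months, 224 between the gated groups, 0 in each young comparison and 8 in WT with age. It called 3033 and 3280 for the gated groups against the same line at 3 months, and 1193 and 1061 for the changes minus that in WT. No call of the 4 genes was changed by the block, and with it Per1 (limma adjusted p = 0.0428), Pik3r1 (0.0301) and Txn2 (0.0354) were also called in gated APP and Hspa1a (0.0195) in gated TAU.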
